A study of Mus musculus with 10 samples.

Results

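The dual-specificity MAP kinase phosphatases are enzymes that switch MAP kinases off by removing phosphate from both the threonine and the tyrosine of the activation loop. The genes described here are 9 mouse genes, Dusp1, Dusp3, Dusp4, Dusp5, Dusp6, Dusp7, Dusp8, Dusp10 and Dusp14, taken by symbol from a table of 49315 genes. RNA came from the granule cell layer dissected from the dorsal dentate gyrus, the gateway region of the hippocampus, in male mice of the C57 BL/6 strain. A group of 5 mice is labelled cocaine and another of 5 is labelled saline, both named for self-administration, with 1 library per mouse. The dose, the schedule, the age of the mice and the time between the last session and dissection are not stated in the labels. The tissue is a layer and not sorted cells, so fewer cells of a type and less RNA per cell cannot be told apart.

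MAP kinases carry signals from receptors and calcium to the nucleus, and the ERK, JNK and p38 branches respond to different inputs. In neurons ERK links synaptic activity to transcription, and several phosphatase genes are themselves switched on by that activity, which makes them feedback brakes. Dusp1, Dusp4 and Dusp5 code for nuclear phosphatases whose genes are inducible, Dusp6 and Dusp7 for cytoplasmic phosphatases that prefer ERK, Dusp8 and Dusp10 for phosphatases that prefer JNK and p38, and Dusp3 and Dusp14 for small enzymes of the atypical branch.

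The 10 libraries held 34991548 to 46481533 counts. All 10 granule cell markers on a list of textbook genes were present in every library, with Prox1, the transcription factor that defines granule cells, at 204 to 419 CPM (counts scaled to the adjusted library total). Markers of other cells were present too. Oligodendrocyte markers, from the cells that make myelin, summed to 3874 to 10360 CPM over 10 genes with cocaine and 3824 to 5484 CPM with saline, and all 10 had a log2 fold change above 0. The 10 choroid plexus markers, from the epithelium that secretes cerebrospinal fluid, ran from 63.4 to 3637 CPM with cocaine and from 97.8 to 1409 CPM with saline, again with all 10 above 0. Granule cell markers summed to 1265 to 2290 CPM with cocaine and 1672 to 2259 CPM with saline, with 0 of 10 above 0. Astrocyte markers also had 0 of 10 above 0. No marker on these lists was at 0 in all libraries. Cocaine replicates 5 and 1 and saline replicate 3 were the libraries richest in choroid plexus markers. On the first principal component cocaine replicate 5 stood at −54.2, beyond the span of −27.9 to 25.2 that held the rest.

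Activity can reach a gene through elements in its promoter, and the stretches that hold matches to such elements are shown first. RefSeq (GRCm38.p6) gave a promoter window of 300 bases, from 250 before to 50 after the start site, for 8 of the 9 genes, all except Dusp4. The start site of the window was the outer end of the RefSeq gene for Dusp1, Dusp5, Dusp6 and Dusp10, and an internal start for Dusp3, Dusp7, Dusp8 and Dusp14. That of Dusp8 lay 623 bases inside the RefSeq gene, so its stretches here fall within the gene span. The cyclic AMP response element, or CRE, is the site bound by CREB family factors, and its full form was searched as TGACGTCA and its core as TGACG, on both strands, the core also lying inside the full form. The CArG box, the site bound by serum response factor, was searched by its consensus. Positions are counted from the start site, with −1 the base before it. In the lines here the capitals mark CRE, CRE core and CArG box letters, read 5′ to 3′ on the strand of the gene.
Dusp1 (chr17:26508522-26508672, minus strand, −200 to −50): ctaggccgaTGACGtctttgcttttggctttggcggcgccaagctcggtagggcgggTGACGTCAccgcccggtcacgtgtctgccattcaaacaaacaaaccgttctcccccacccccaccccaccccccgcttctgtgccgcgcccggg
Dusp5 (chr19:53529015-53529105, plus strand, −130 to −40): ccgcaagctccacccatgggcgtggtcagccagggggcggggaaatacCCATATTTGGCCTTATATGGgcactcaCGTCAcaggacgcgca
Dusp8 (chr7:142095375-142095404, minus strand, −120 to −91): gcgcccgctccgcTGACGTCAcctgccccc
Dusp8 (chr7:142095329-142095358, minus strand, −74 to −45): ttggctgcaggTGACGTCAggggctttttc

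A full CRE was found in 2 of the 8 promoter windows, those of Dusp1 and Dusp8, beside 1.79% of 32851 promoter windows of the same length. Dusp1 had 1, at −143 to −136, and a separate core at −191 to −187. Dusp8 had 2, at −107 to −100 and −63 to −56. A CArG box was found in 1 of the 8, beside 1.63% of all windows. That gene was Dusp5, with 2 boxes that touch, at −82 to −73 and −72 to −63, and a CRE core at −55 to −51. CRE cores, counting those inside full CREs, were in 3 of the 8 windows and in 20.8% of all windows. The AP-1 site TGANTCA, bound by Fos and Jun proteins, had a match in 0 of the 8 and in 7.81% of all windows, and the ETS core CCGGAAG in 0 of the 8 and 8.86%. The GC box GGGCGG was in 7 of the 8, all except Dusp6, beside 35.7% of all windows, and the GC content of the 8 windows was 57.3% to 78.7%. CCAAT was in 5 of the 8, beside 37.4% of all windows, and CACGTG in the Dusp1 window only, beside 7.15%. The windows cover a short stretch and a match is a description of its letters.

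**Figure D1:**
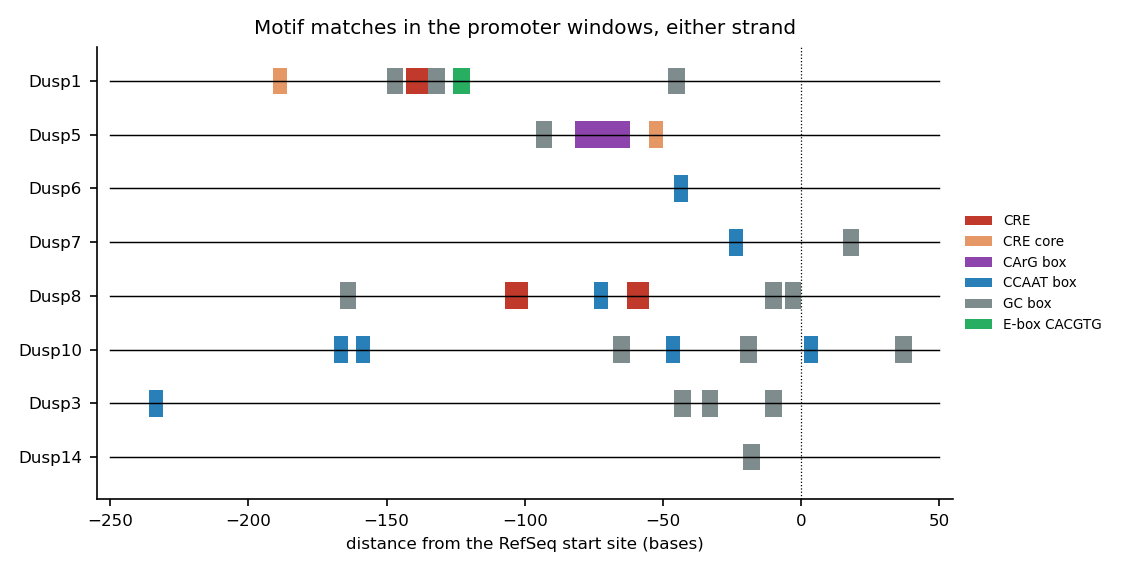
Matches to 6 motifs in the promoter windows of 8 phosphatase genes, with distance from the RefSeq start site in bases on the x axis and 1 line per gene. The CRE matches lie in Dusp1 and Dusp8, and the 2 touching CArG boxes in Dusp5 appear as 1 block.

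All 9 genes were measured well above the low-count filter, with 92 to 8417 counts per library. Levels of different genes are compared as CPM per kilobase of merged exons in GENCODE M21, over all 10 libraries. Dusp3 and Dusp8 stood highest, at 37.4 ± 1.75 and 37.0 ± 3.72 CPM per kilobase (SD, n = 10), and their ranges overlapped. Dusp7 followed at 28.5 ± 2.77, overlapping the lower end of Dusp8. Dusp14 was at 20.3 ± 1.74, with its highest library at 22.8, below the lowest of Dusp7 at 24.5. Dusp6 was at 13.0 ± 2.20 and Dusp4 at 9.83 ± 2.22, with ranges that overlapped. Dusp5 and Dusp1 were low, at 4.11 ± 1.79 and 3.63 ± 0.921, and overlapped too. Dusp10 was lowest at 1.39 ± 0.370 CPM per kilobase, with its highest library at 1.98. The order of Dusp1 and Dusp5 depends on the length used. Over the principal transcript alone Dusp1 stood at 6.03 and Dusp5 at 4.11 CPM per kilobase. The separation of Dusp14 from Dusp7 likewise holds for merged exons only. Over the principal transcript their means were closer, at 25.1 and 29.8 CPM per kilobase.

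Over all genes, edgeR's quasi-likelihood test with Benjamini-Hochberg adjustment called 0 of 17080 genes (percent called 0), and 0 of the 9 phosphatases. At an unadjusted p under 0.05, 1 of the 9 phosphatases, or 11.1%, stood higher with cocaine and 0 lower, beside 8.91% of all genes tested in either direction, 5.58% higher and 3.33% lower, so the share is near the background. A log2 fold change above 0 was found for 4 of the 9, beside 53.6% of all genes, and the median of the 9 was −0.03 beside 0.02 for all genes. DESeq2 and limma voom with sample weights also called 0 of the 9, with 2 and 1 of them at an unadjusted p under 0.05. Of all 17080 genes tested, 1041 stood higher and 720 lower at that line in DESeq2. In voom 1767 stood higher and 1136 lower.

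**Figure D2:**
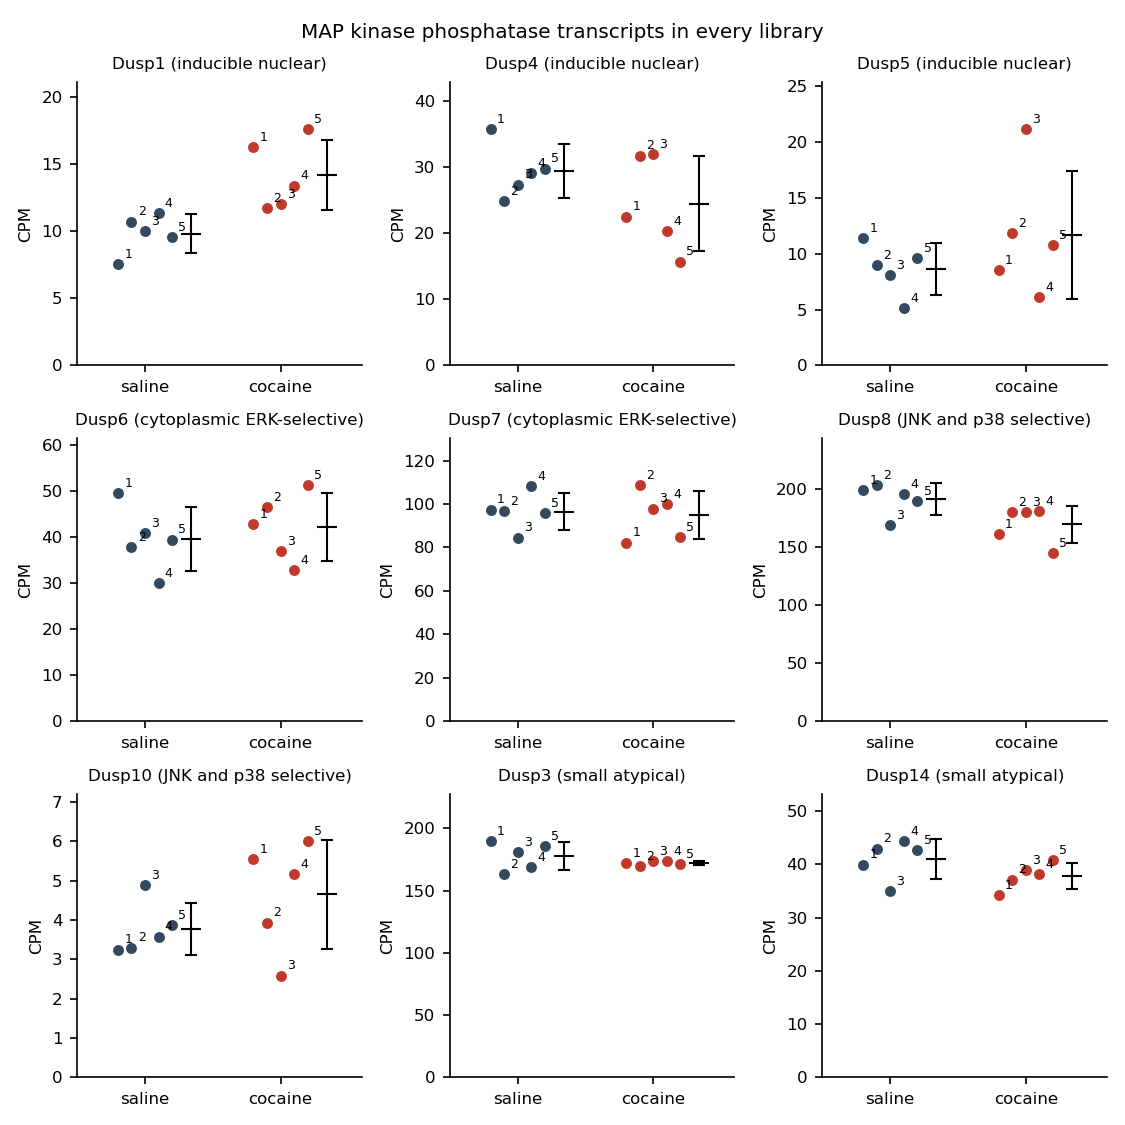
CPM of each phosphatase gene in every library, with 1 panel per gene, saline at left and cocaine at right, points numbered by replicate and bars for the mean ± SD (n = 5). All 5 cocaine points lie above all 5 saline points for Dusp1, and the groups overlap for the other 8 genes.

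Dusp1, an inducible nuclear phosphatase that acts on p38, JNK and ERK, was the only one of the 9 whose groups did not overlap, where 0.773% of all genes tested were higher in that way. Its level was 16.2, 11.7, 12.03, 13.4 and 17.6 CPM in cocaine replicates 1 to 5 and 7.53, 10.7, 9.98, 11.3 and 9.58 CPM in saline replicates 1 to 5. Cocaine replicates 1 and 5 were the highest, and the lowest cocaine library, replicate 2, stood just above the highest saline library, replicate 4. The cocaine mean was 14.2 ± 2.62 CPM and the saline mean 9.82 ± 1.45 CPM (SD, n = 5), for a log2 fold change of 0.53 (SE 0.14). The edgeR adjusted p was 0.504 over all genes and the unadjusted p 0.00265, with a smaller p in 0.404% of genes. An exact permutation test of log2 CPM gave p = 0.00794, two-sided, the smallest that this design can give. That value is fixed by the lack of overlap and adds nothing to it. Without the 3 libraries richest in choroid plexus markers the log2 fold change was 0.34, with an unadjusted edgeR p of 0.0427.

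The Dusp1 identifier covers more than the phosphatase transcript. In GENCODE M21 (mm10) it spans chromosome 17 from 26505590 to 26562128 on the minus strand, while RefSeq places the gene from 26505591 to 26508472. The longer span comes from transcripts that begin farther upstream, and an upstream exon overlaps Ergic1 on the opposite strand, a gene with 3800 to 5815 counts per library. Ergic1 had a log2 fold change of −0.14 (SE 0.06). No source used here states the strand setting of the authors' counting, so which of these transcripts gave the Dusp1 counts cannot be told apart. Opposite-strand genes that overlap Dusp3, Dusp5, Dusp8 and Dusp10 had 0 to 18 counts per library.

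Dusp4, a nuclear phosphatase closely related to Dusp1, maps to chromosome 8, bases 34807297 to 34819894. Its level was 22.5, 31.8, 32.0, 20.4 and 15.7 CPM in cocaine replicates 1 to 5 and 35.8, 24.9, 27.4, 29.1 and 29.8 CPM in saline replicates 1 to 5. Cocaine replicates 1, 4 and 5 lay below every saline library, and cocaine replicates 2 and 3 lay among them. The means were 24.5 ± 7.18 and 29.4 ± 4.06 CPM (SD, n = 5), a log2 fold change of −0.26 (SE 0.18) and an edgeR adjusted p of 0.670. The log2 fold change was −0.38 without cocaine replicate 2 and also −0.38 without cocaine replicate 3, −0.14 without cocaine replicate 5 and −0.09 without the 3 libraries richest in choroid plexus markers.

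The ratio of Dusp1 to Dusp4 does not depend on the scaling of a library. It was 0.720, 0.368, 0.376, 0.657 and 1.120 in cocaine replicates 1 to 5 and 0.210, 0.430, 0.364, 0.389 and 0.321 in saline replicates 1 to 5. Cocaine replicates 1, 4 and 5 had the highest ratios, and replicates 2 and 3 lay within the saline range. The ratios of Dusp1 to Dusp3, Dusp8 and Dusp14 separated the groups, with cocaine at 0.0688, 0.0650 and 0.309 or more and saline at 0.0670, 0.0591 and 0.285 or less. Dusp1 alone already separated the groups, and these genes had log2 fold changes near or below 0. Such ratios are therefore not a result apart from that of Dusp1. The ratios to Dusp5, Dusp6, Dusp7 and Dusp10 overlapped.

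Dusp5, a nuclear phosphatase specific for ERK, lies on chromosome 19 from 53529109 to 53542431 and was the most variable of the 9, with a coefficient of variation of 43.5% over the 10 libraries. Its level was 8.57, 11.8, 21.2, 6.12 and 10.7 CPM in cocaine replicates 1 to 5 and 11.4, 9.01, 8.06, 5.14 and 9.63 CPM in saline replicates 1 to 5. Cocaine replicate 3 stood well above all other libraries, and the remaining cocaine libraries overlapped saline. The log2 fold change was 0.43 (SE 0.29) and an edgeR adjusted p of 0.669, and 0.11 without cocaine replicate 3. Voom with sample weights gave 0.23.

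Dusp6, the cytoplasmic phosphatase whose transcript follows ERK signalling in many tissues, maps to chromosome 10, bases 99263231 to 99267489. Levels were 42.8, 46.5, 37.0, 32.7 and 51.3 CPM with cocaine and 49.4, 37.8, 40.9, 30.0 and 39.4 CPM with saline, in replicate order. The groups overlapped over most of their range, with a log2 fold change of 0.09, an SE of 0.14 and an edgeR adjusted p of 0.875. Its sign turned in 2 of 17 alternatives. Dusp7, its close relative on chromosome 9 from 106368632 to 106375724, ran from 82.3 to 109 CPM with cocaine, with a median of 97.9, and from 84.6 to 108 CPM with saline, with a median of 96.6. Its log2 fold change was −0.03 (SE 0.09) and an edgeR adjusted p of 0.952, and the sign turned in 5 of 17 alternatives.

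Dusp8, a phosphatase of JNK and p38 that is abundant in brain, lies on chromosome 7 from 142079490 to 142095843 and was among the 2 highest of the 9 per length. Its level was 161, 180, 180, 181 and 145 CPM in cocaine replicates 1 to 5 and 199, 204, 169, 196 and 190 CPM in saline replicates 1 to 5. All 5 cocaine libraries lay below the saline median of 196 CPM, and replicates 1 and 5 lay below every saline library. Saline replicate 3 was the only saline library within the cocaine range. The means were 169 ± 16.0 and 191 ± 13.5 CPM (SD, n = 5), a log2 fold change of −0.18 (SE 0.08). The edgeR adjusted p was 0.564 and the unadjusted p 0.0515, and an exact permutation test gave p = 0.0556, two-sided. The unadjusted p passed 0.05 in 7 of 17 alternatives, and the log2 fold change was smallest in voom with sample weights, at −0.11.

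Dusp10, the other phosphatase of JNK and p38, lies on chromosome 1 from 184013302 to 184075636 and was at 5.55, 3.94, 2.59, 5.17 and 6.01 CPM in cocaine replicates 1 to 5. Saline replicates 1 to 5 had 3.25, 3.30, 4.88, 3.58 and 3.87 CPM. Cocaine replicates 1, 4 and 5 lay above every saline library and cocaine replicate 3 below every one. The log2 fold change was 0.30 (SE 0.22) and an edgeR adjusted p of 0.687. It was 0.19 without cocaine replicate 5, 0.45 without cocaine replicate 3, 0.16 without the 3 libraries richest in choroid plexus markers, and 0.17 in voom with sample weights.

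The small phosphatases varied least. Dusp3, on chromosome 11 from 101971143 to 101987013, stood at 172, 170, 174, 173 and 171 CPM in cocaine replicates 1 to 5 and at 190, 164, 181, 169 and 186 CPM in saline replicates 1 to 5. The cocaine libraries lay close together, all inside the saline range. Its coefficient of variation was 0.895% with cocaine and 6.33% with saline, and 4.68% over all 10, where the median gene tested had 15.5%. The log2 fold change was −0.05 (SE 0.06) and an edgeR adjusted p of 0.842. Dusp14, on chromosome 11 from 84048041 to 84069261, ran from 34.3 to 40.8 CPM with cocaine, with a median of 38.2, and from 35.04 to 44.4 CPM with saline, with a median of 42.7. All 5 cocaine libraries lay below the saline median. The log2 fold change was −0.12 (SE 0.08) and an edgeR adjusted p of 0.682.

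**Figure D3:**
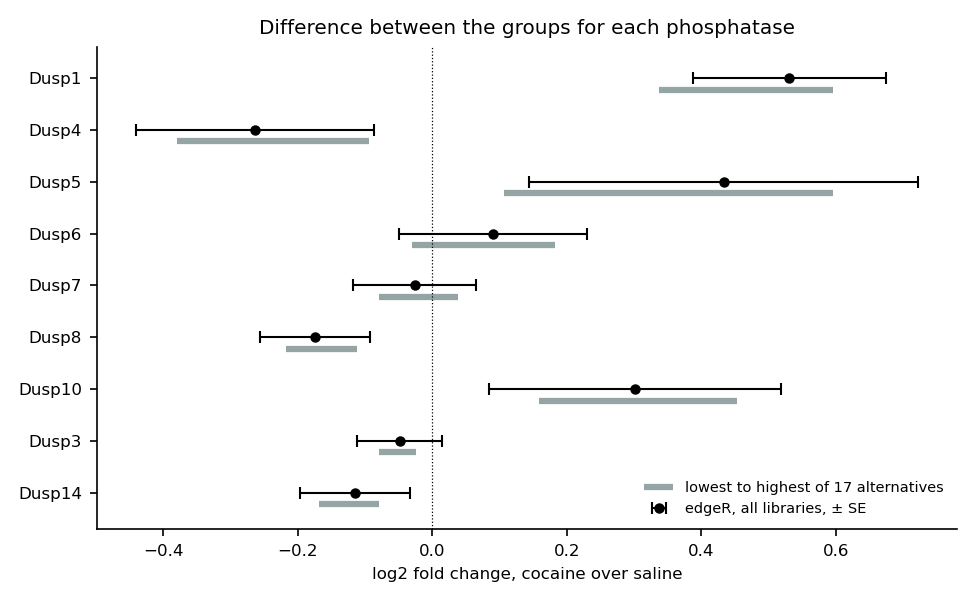
Log2 fold change of cocaine over saline for each phosphatase gene, with points for edgeR with all libraries, whiskers of 1 SE and grey bars from the lowest to the highest of 17 alternatives. Dusp1 stays between 0.34 and 0.60, while the bars of Dusp6 and Dusp7 cross 0.

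Across the 10 libraries the 9 genes did not move as 1 set. The values here are Pearson's r of log2 CPM, given as a description over libraries that share 2 groups and differ in cell type makeup, beside r of the deviations from the group means. Dusp1 ran opposite to Dusp4 (r of −0.82, and −0.83 within groups) and to Dusp8 (−0.78 and −0.59), and with Dusp10 (0.63 and 0.61). Dusp4 ran opposite to Dusp10 (−0.79 and −0.75) and with Dusp8 (0.70 and 0.60). Dusp7 ran with Dusp8 (0.69 and 0.80). Dusp1 had no such relation to Dusp6 (0.04 and −0.17).

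The same split showed beside oligodendrocyte and granule cell markers. With the summed oligodendrocyte markers r was 0.79 for Dusp1, 0.73 for Dusp10, −0.91 for Dusp4, −0.81 for Dusp8 and −0.65 for Dusp7. Without the 2 libraries farthest from the median of the markers these were 0.63, 0.50, −0.68, −0.78 and −0.86. Within groups they were 0.64, 0.70, −0.89, −0.70 and −0.73. With the summed granule cell markers r was 0.92 for Dusp7, 0.84 for Dusp8, 0.72 for Dusp4, −0.66 for Dusp1 and −0.63 for Dusp10. Without the 2 farthest libraries Dusp7 kept an r of 0.94, while Dusp8 had 0.40, Dusp4 0.22, Dusp1 0.11 and Dusp10 −0.08, so these 4 relations rest on those libraries. Dusp3, Dusp5, Dusp6 and Dusp14 had r of −0.17, −0.04, 0.17 and −0.29 with the oligodendrocyte markers, and −0.04, 0.14, 0.02 and −0.63 without the 2 farthest libraries. With the summed oligodendrocyte precursor markers r was 0.65 for Dusp1, 0.70 for Dusp10, −0.82 for Dusp4, −0.61 for Dusp8 and −0.61 for Dusp7. Without the 2 farthest libraries these were 0.83, 0.81, −0.83, −0.93 and −0.83, and within groups 0.55, 0.65, −0.77, −0.49 and −0.62. Some other marker lists gave r of like size. Within groups Dusp4 had −0.91 with pericyte and smooth muscle, −0.85 with endothelium and −0.84 with microglia markers. Dusp1 had 0.76 with pericyte and smooth muscle markers. Without the 2 farthest libraries, in that order, r was −0.47, −0.49, −0.22 and 0.07. Dusp6 had 0.63 over all libraries with choroid plexus markers, or 0.34 without the 2 farthest. With interneuron markers Dusp6 had 0.51 over all libraries, 0.62 within groups and 0.88 without the 2 farthest.

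Oligodendrocyte markers summed to 6869, 7999.7 and 10360 CPM in cocaine replicates 1, 4 and 5, the 3 cocaine libraries with the highest Dusp1 and Dusp10 and the lowest Dusp4. Cocaine replicate 2 had 3874 CPM of these markers, near the lowest saline library, and a Dusp1 level of 11.7 CPM, above all saline libraries. Saline replicate 4, with 3845 CPM of the markers, had a Dusp1 level close to that, at 11.3 CPM. The nuclear RNAs Neat1, Malat1 and Meg3 together took 0.101% to 0.247% of counts with cocaine and 0.0740% to 0.121% with saline, and the r of this share with Dusp1 was 0.61, or 0.07 without the 2 farthest libraries. The part of cell type makeup and of this share in the Dusp1, Dusp4, Dusp8 and Dusp10 values was not tested.

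**Figure D4:**
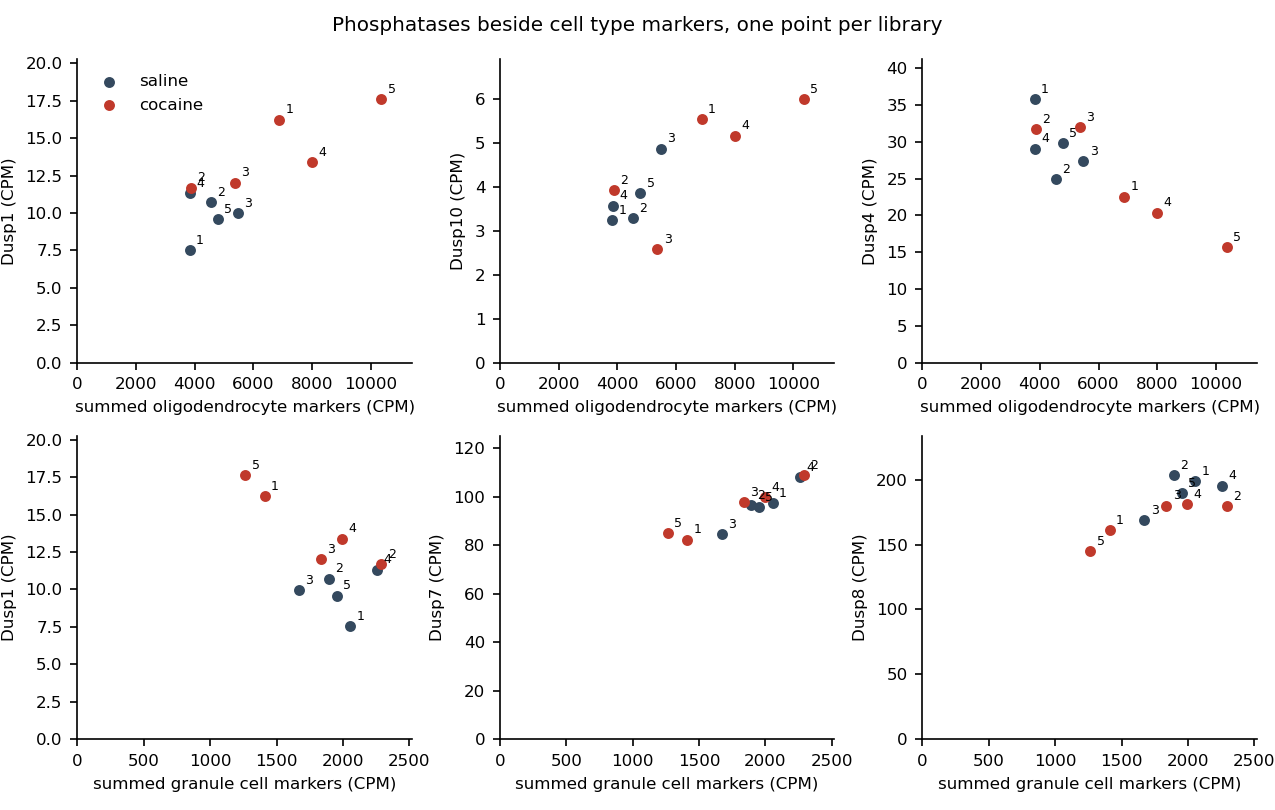
CPM of phosphatase genes (y axis) against summed CPM of oligodendrocyte markers (top) or granule cell markers (bottom), with 1 point per library numbered by replicate. Cocaine replicates 1, 4 and 5 lie at the right of the top panels, with the highest Dusp1 and the lowest Dusp4.

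Rapid activity genes, transcribed in neurons soon after firing without new protein synthesis, are the group to which inducible phosphatases are usually added. Of 19 on the list, 13 were above 0 on the log2 scale, beside 53.6% of all genes tested, and the median was 0.10. An unadjusted p under 0.05 was reached by 6 members, all higher with cocaine, and 0 were called in edgeR. Over all genes tested 5.58% stood higher at that line. The list was chosen with earlier results of these data known, and its share was not tested. Arc, whose RNA travels to active synapses, and Nr4a1, a nuclear receptor, had log2 fold changes of 0.71 and 0.66. Npas4, a neuronal transcription factor, was at 0.65, Ier2 at 0.42, Fos at 0.74 and Egr1 at 0.23, with SE of 0.17, 0.12, 0.23 and 0.15. Their means differed in the same direction as that of Dusp1, but within the groups all of them except Ier2 had a negative r with it. In the cocaine group Fos stood at 11.6 and 11.1 CPM in replicates 2 and 3, the 2 highest of that gene, where Dusp1 was lowest, and at 7.52 CPM in replicate 1, where Dusp1 was second highest. In saline replicate 1 Fos stood at 9.997 CPM, the highest of its group, and Dusp1 at 7.53 CPM, the lowest. Over all 10 libraries r of Dusp1 was 0.23 with Fos, 0.29 with Arc, 0.42 with Nr4a1, 0.49 with Npas4, 0.00500 with Egr1 and 0.70 with Ier2. Within groups, in the same order, it was −0.78, −0.74, −0.31, −0.29, −0.59 and 0.23. Other genes of the list ran with Dusp1 within groups, among them Ier3 at 0.65 and Klf2 at 0.51. Over the whole list Fos was the lowest and Ier3 the highest. Dusp5 had r of 0.60 with Fos, 0.68 with Arc, 0.78 with Nr4a1, 0.38 with Npas4, 0.73 with Egr1 and 0.51 with Ier2 over all libraries. Within groups these were 0.56, 0.71, 0.83, 0.20, 0.69 and 0.43, while with Ier3 and Btg2 of the same list they were −0.47 and −0.21. The highest library of Dusp5, cocaine replicate 3, was also that of Nr4a1, at 45.9 CPM, and of Arc, at 122 CPM. Dusp4 had r of 0.00238 with Fos and 0.04 with Arc over all libraries, and 0.56 and 0.68 within groups. Over the whole list Dusp4 ran from −0.76 with Ier3 to 0.79 with Fosb, and from −0.85 to 0.78 with the same 2 genes within groups. Dusp6 had 0.67 with Egr1 in both, its highest on the list, and its lowest were −0.63 and −0.62 with Btg2.

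**Figure D5:**
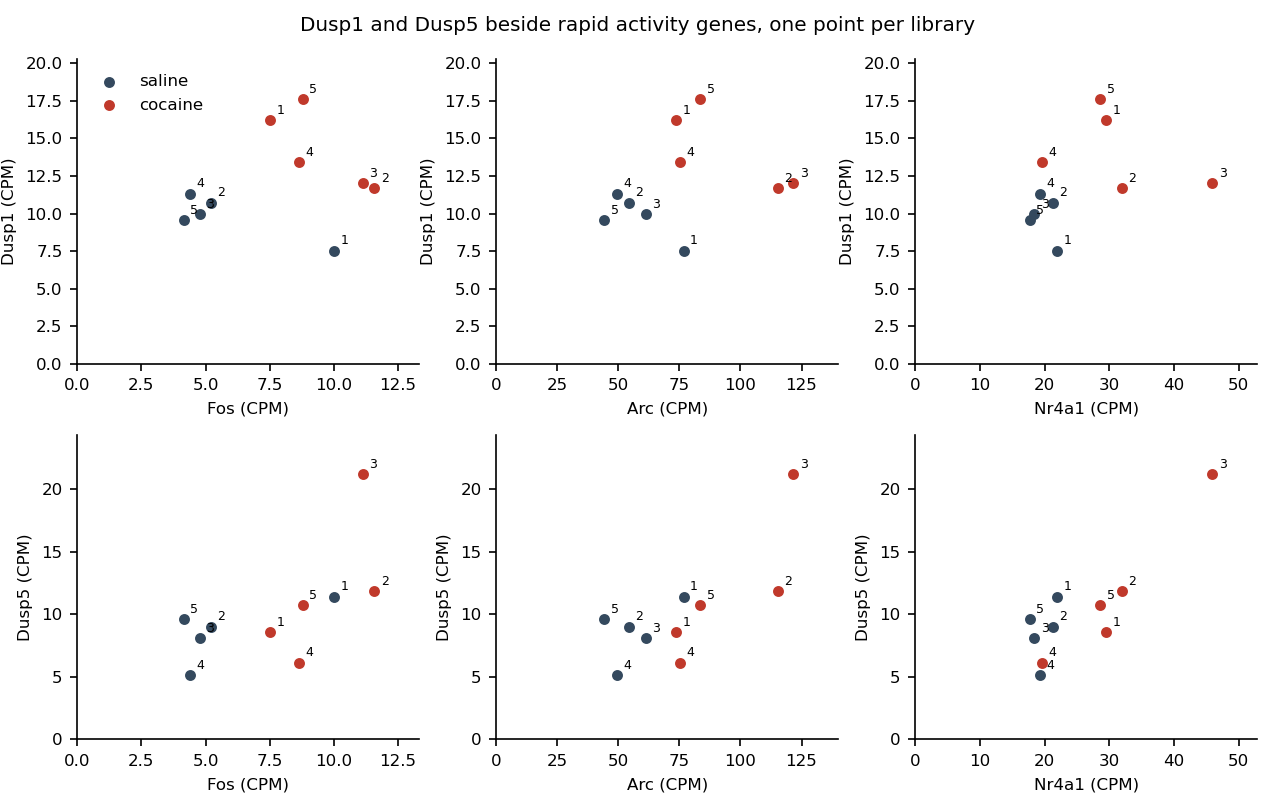
CPM of Dusp1 (top) and Dusp5 (bottom) against CPM of Fos, Arc and Nr4a1, with 1 point per library numbered by replicate. Within the cocaine group Dusp1 is highest in replicates 1 and 5, which are not the highest for Fos or Arc, and Dusp5 is highest in replicate 3, which is highest for Nr4a1 and Arc.

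By the highest r over the 10 libraries, the genes most like Dusp1 were Fah (0.96), Dpm2 (0.95) and Stk33 (0.94), those most like Dusp4 were Fam171a1, Fam78b and Ppm1e (0.96 each), and those most like Dusp5 were Tmem215 (0.94), Rsl1 (0.89) and Trp53rkb (0.88). For Dusp6 they were Fgfr1op2 (0.95), Ak4 (0.92) and Serpinb8 (0.91). Dusp7 was most like Jun (0.98), Syt17 (0.97) and Neurod1 (0.96). Dusp8 was most like AI504432 (0.95), Spata2 (0.94) and Mosmo (0.93), and Dusp10 like AC122117.2 (0.93), Six3os1 (0.93) and Tspan14 (0.92). Dusp3 was most like Mrrf (0.91), Fkbp14 (0.88) and Chgb (0.87), and Dusp14 like Poc1b (0.90), Chmp6 (0.89) and Ube2r2 (0.89). These are the top values over 10 libraries among the 17080 genes, less those with no symbol or a Gm, Rik or -ps symbol. Such a choice gives high r by itself.

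Other phosphatases of the family were read from a fixed list of 16. Of these 15 were tested, 9 with a log2 fold change above 0, beside 53.6% of all genes tested. Higher at an unadjusted p under 0.05 were 3 and lower 0, beside 5.58% and 3.33% of all genes tested, with 0 called in edgeR. These were Ssh3, a cofilin phosphatase, at 0.60 (SE 0.19), the oligodendrocyte-enriched Dusp15 at 0.44 (SE 0.14), and Dusp12 at 0.27 (SE 0.10), the last named after its values were seen. Dusp12 stood at 11.7, 9.82, 13.4, 10.7 and 11.1 CPM with cocaine and 9.52, 9.50, 9.61, 9.14 and 9.33 CPM with saline, in replicate order, so its groups did not overlap. Of all genes tested 0.773% were higher in that way. The remaining classical MAP kinase phosphatases, also named after their values were seen, were Dusp16 at 0.13 (SE 0.13), Dusp2 at −0.46 (SE 0.27) and Dusp9 at −0.24 (SE 0.53), the last 2 at mean levels of 0.222 to 1.40 CPM. Of the tyrosine phosphatases that act on MAP kinases 2 were tested and 0 called in edgeR. At an unadjusted p under 0.05, 1 stood lower, beside 3.33% of all genes tested. This was Ptprr, with a log2 fold change of −0.22 (SE 0.08) and an edgeR adjusted p of 0.520. It ran from 14.0 to 17.8 CPM with cocaine and from 17.6 to 19.9 CPM with saline, so its groups overlapped. Ptpn5, known as STEP, was at 0.11 (SE 0.12).

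The kinases on which these phosphatases act were read from fixed lists too, with 0 called in edgeR in each. Over all genes tested 53.6% were above 0 on the log2 scale. At an unadjusted p under 0.05 in edgeR, 5.58% of all genes tested stood higher and 3.33% lower. In the ERK cascade 8 of 22 genes were above 0 on the log2 scale, the median being −0.08, and an unadjusted p under 0.05 was reached by 1 that stood higher and 3 that stood lower. Shc3, a neuronal adaptor that links receptors to Ras, was at −0.50 (SE 0.16), and Map2k2, an ERK kinase, at 0.19 (SE 0.07). In the JNK cascade 5 of 12 were above 0, with a median of −0.06. Mapk9, which codes for JNK2, was lower at an unadjusted p under 0.05, at 181 ± 15.2 CPM in the cocaine and 208 ± 8.32 CPM in the saline libraries (SD, n = 5). All 5 cocaine libraries lay below every saline library, as in 0.609% of all genes tested, for a log2 fold change of −0.20 (SE 0.07) and an edgeR adjusted p of 0.511. Map3k11, an upstream kinase of JNK, was at 0.19 (SE 0.09). In the p38 cascade 7 of 11 were above 0, with a median of 0.17 and 0 past an unadjusted p of 0.05, and the smallest p were those of Map3k6 at 0.48 (SE 0.24) and of Mapk11, a p38 kinase, at 0.25 (SE 0.13).

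Of 10 inhibitors that restrain Ras and ERK, 4 were above 0, beside 53.6% of all genes tested. Their median was −0.10, with 0 past an unadjusted p of 0.05. Spry2, a feedback inhibitor induced by growth factors, was at −0.16 (SE 0.08), and Nf1, which turns Ras off, at −0.16 (SE 0.10). Of 14 kinases and transcription factors that ERK activates, 7 were above 0, with a median of −0.05 and 0 past that line, and the smallest p were those of Rps6ka3 at −0.18 (SE 0.11) and Etv5 at −0.13 (SE 0.09).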

How the data were processed

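Per the submitters' processing notes, the authors used cutadapt, STAR, Cufflinks and HTSeq with build mm10, without versions, and deposited raw counts per Ensembl gene for 10 libraries. Per the labels' protocols, the libraries were poly(A)-selected and directional. The annotation, strand setting and filters are not stated in those notes. GENCODE M21 matched 49040 of 49315 identifiers. The counts were tested with edgeR 4.0.16 (R 4.3.3) with TMM factors, filterByExpr and a two-sided quasi-likelihood F test, adjusted by Benjamini-Hochberg over 17080 genes at a threshold of 0.05. CPM uses TMM-adjusted totals, and log2 CPM a prior count of 2. DESeq2 1.42.0 and limma 3.58.1 voom were alternatives. The fits were tested on simulated data. Groups come from the titles.

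The members and gene lists were chosen with earlier results of these data known. Named are all 9 members, the 2 genes of smallest p in each pathway list, 6 rapid activity genes and the 3 genes most like each member (predicted genes with Gm, Rik or -ps symbols were passed over). The marker lists also covered pyramidal cells, interneurons, astrocytes, oligodendrocyte precursors, microglia, endothelium, and pericytes with smooth muscle, whose median log2 fold changes were −0.06, −0.01, −0.05, 0.06, 0.00229, −0.02 and −0.000125.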

Additional observations from a re-analysis of the deposited data

How the results depend on the processing

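Dusp1, Dusp3, Dusp4, Dusp5, Dusp8, Dusp10 and Dusp14 kept their direction in all 17 alternatives, and none of the 9 phosphatases was called in any of them. Dusp1 ranged from 0.34 to 0.60, with adjusted p from 0.0873 in voom to 0.892 without saline replicate 1. Dusp6 turned to −0.0307 in voom and −0.0158 without the 3 libraries richest in choroid plexus markers. Dusp7 turned to 0.0117 in voom and 0.0380 without those 3, and ranged from −0.0795 to 0.0211 when single libraries were left out, being above 0 without cocaine replicate 1 (0.0211), cocaine replicate 5 (0.00991) or saline replicate 4 (0.0167). The phosphatases at an unadjusted p under 0.05 numbered 2 with RLE factors and 2 with no low-count filter. They numbered 2 in DESeq2, 2 without those 3 libraries, and 1 to 3 when single libraries were left out. There were 3 without cocaine replicate 3 or 4. Over all genes tested, those past that line, higher and lower, were 929 and 609 of 17080 with RLE factors. With no low-count filter they were 1437 and 858 of 29629, and in DESeq2 1041 and 720 of 17080. Without those 3 libraries they were 1219 and 608 of 17324. Without cocaine replicate 3 they were 822 and 276 of 17278, and without cocaine replicate 4 801 and 413 of 17256. Over all genes DESeq2 called 21 and voom 95, and leaving out single libraries gave 0 to 129, the latter without cocaine replicate 5. Same-numbered libraries did not deviate together (correlations from −0.215 to 0.0291). With the replicate number as a block 0 genes were called, 1 phosphatase was at an unadjusted p under 0.05, and Dusp1 had 0.52. In that fit 735 of all 17080 genes tested stood higher at that line and 385 lower. Dusp10 had the fewest counts, 92 to 229 per library, and Dusp5 the largest SE.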
